A study of Rattus norvegicus with 4 samples.

Results

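The genes described here move or hold calcium in muscle: the calcium pumps Atp2a1, Atp2a2 and Atp2b1, the pump regulator Pln, the store proteins Casq1 and Casq2, the cytosolic buffer Pvalb and the release channel Ryr1. They were chosen as a list of 8 gene symbols. Every probe set (a group of short oligonucleotides summarised as 1 value) annotated to them was taken. That gave 12 probe sets of 8799, each annotated to a single gene, and they cover 7 of the 8 genes, out of 4736 genes with a probe set of their own. No probe set was matched to Ryr1, which was not analysed here. Expression was measured on 4 Affymetrix arrays in the soleus, a postural hindlimb muscle, of female rats. On 2 arrays the RNA came from control rats with spontaneous activity in normal cages, and on 2 from rats that underwent intermittent hindlimb unloading, 10 h on each of 11 days. RNA of 4 to 5 rats was combined before hybridisation. Errors therefore describe the spread between such pools and not between animals. The sources used here do not give strain, age or the time from the last unloading bout to sampling.

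In a muscle fibre, depolarisation of the surface membrane opens the ryanodine receptor, calcium leaves the sarcoplasmic reticulum, and the fibre contracts. Relaxation follows as SERCA pumps return calcium to the reticulum, where calsequestrin binds it. Fast fibres use SERCA1 (Atp2a1), calsequestrin 1 and, in the fastest types, the cytosolic buffer parvalbumin. Slow fibres, of which the rat soleus is mostly made, use SERCA2 (Atp2a2) and carry calsequestrin 2 beside calsequestrin 1. Phospholamban restrains SERCA2.

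The fast pump rose in the unloaded soleus, and none of the other tested members passed. Atp2a1 was 1.65-fold higher. The 4 probe sets of Atp2a2 gave fold changes of both signs, and neither they nor Casq1, Casq2 or Pvalb passed. Atp2b1 was lower in both unloaded pools, also without passing. Over the 9 member probe sets bright enough to test, 1 rose, none fell and 8 did not pass. The same rule called 2.59% of all 5257 tested probe sets as higher and 2.66% as lower. The groups did not overlap in 7 of the 9, 5 higher and 2 lower. That was so of 25.5% (higher) and 25.3% (lower) of all tested probe sets. All 4 probe sets of Atp2a2 are among these 7. By the brightest probe set of each of the 6 tested genes, 3 were higher and 1 was lower. At an unadjusted p under 0.05, 20.8% of all tested probe sets passed, and 4 of the 9 member probe sets did. These were the probe sets of Atp2a1 and Atp2b1, and J04024_at and rc_AA800212_at of Atp2a2, which had opposite signs.

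Signals are linear MAS5 intensities, the per-array summary value of Affymetrix software. Fold changes are unloaded minus control on a log2(signal + 9) scale, with standard error (SE) and 95% interval from limma, a linear model fitted over all tested probe sets, and p-values adjusted by the Benjamini-Hochberg method over the same 5257. The offset understates changes of dim probe sets. Brightness also reflects how well a probe set hybridises, so signals of different probe sets are not compared as amounts of RNA.

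Of 10 markers of soleus muscle, which include genes common to all skeletal muscle, 7 had a probe set, and their summed signal was 52899 and 53461 in the control pools and 48589 and 54831 in the unloaded pools. Log2 signals of all tested probe sets correlated at 0.987 between the control pools and at 0.988 between the unloaded pools. Smooth muscle also expresses Atp2a2 and Atp2b1. Its markers had a summed signal of 968.9 and 1087 in controls and of 1205 and 1306 in unloaded pools. Acta2 alone made up 699.5 and 833.2 of the control sums and 889 and 934.1 of the unloaded sums. Of these markers, 3 of 4 were higher in both unloaded pools, 25.5% of all tested probe sets were so, and none passed. Endothelial markers, with 3 of 5 measured, summed to 205.5 and 214.3 against 193.2 and 192.2. Red blood cell markers, with 2 of 3 measured, summed to 4256 and 4508 in controls and 5132 and 5035 in unloaded pools. Hbb alone made up 4067 and 4365 of the control sums and 4897 and 4838 of the unloaded sums. Both markers were higher in both unloaded pools and neither passed. The part of these cell types in the results below was not tested. No marker of these lists was at 0.

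**Figure D1:**
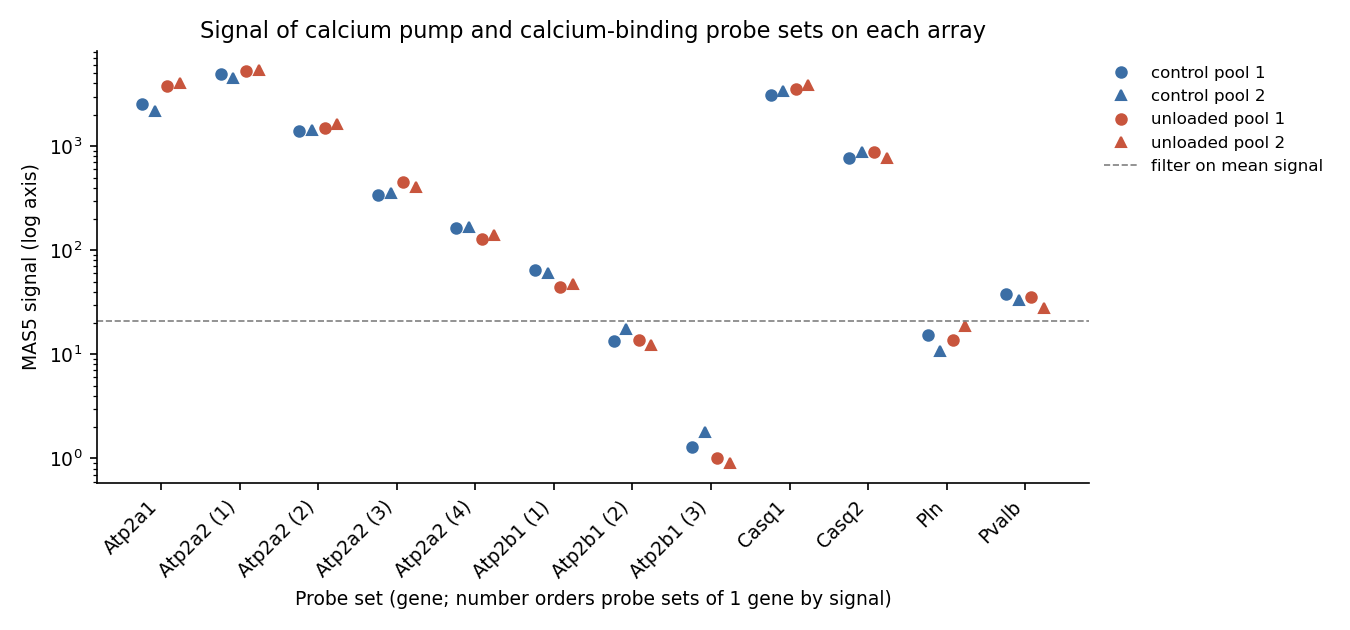
MAS5 signal (log axis) of the 12 probe sets on each of the 4 arrays, with circles for pool 1 and triangles for pool 2 of control (blue) and unloaded (red) rats; numbers in brackets order the probe sets of 1 gene by signal and the dashed line is the filter at a mean signal of 21.0. The unloaded pools of Atp2a1 lie above its control pools, and the probe set of Pln and the 2 dimmer ones of Atp2b1 lie under the filter.

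Atp2a1 encodes SERCA1, the calcium pump of the fast-fibre reticulum. Its probe set, M99223_at, read 2549 and 2191 in the control pools and 3810.2 and 4026 in the unloaded pools. Both unloaded pools were above both control pools, by 1.49 to 1.84 times in the 4 pairings. The means were 2370.2 ± 252.9 and 3918 ± 152.7 (SD, n = 2 pools each), a log2 fold change of 0.73 (SE 0.10, 95% interval 0.49 to 0.96, limma adjusted p = 0.00716). That difference was larger than the spread between pools, and 98.25% of tested probe sets had a lower log2 fold change. The direction was the same whichever array was left out, with 0.62 without control pool 2, 0.69 without unloaded pool 2, 0.77 without unloaded pool 1 and 0.84 without control pool 1. In such a fit 1 group is a lone array that is assumed to vary like the other group, so these p-values say little about stability. Of these fits the last passed, at adjusted p = 0.0399, and the other three gave 0.0814, 0.0649 and 0.0536 in that order. The call was also lost without a filter on dim probe sets (adjusted p = 0.0538) and without a mean-variance trend (0.0614), at an unchanged fold change. These arrays read whole muscle, in which a larger number of fibres expressing a gene and more RNA per fibre cannot be told apart.

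Atp2a2 encodes SERCA2, the pump of slow fibres and heart. Its brightest probe set, AA799276_at, read 4983 and 4476 in controls and 5311 and 5345 in unloaded pools. The unloaded pools were higher by at most 1.19 times, and the log2 fold change of 0.17 (SE 0.09, 95% interval -0.03 to 0.38, limma adjusted p = 0.315) did not pass. It was 0.096 without control pool 2 and 0.25 without control pool 1. The second probe set, rc_AA957510_s_at, read 1396 and 1420 in controls against 1510.1 and 1639 after unloading (0.16, SE 0.09). The third, J04024_at, read 337.1 and 355.7 against 450.7 and 401.2 (0.29, SE 0.11). In these 3 probe sets the groups did not overlap and the unloaded pools were the higher ones. The dimmest, rc_AA800212_at, went the other way without overlap, at 164.3 and 166 in controls and 129 and 140.2 after unloading (-0.28, SE 0.12). None of the 4 passed (limma adjusted p = 0.176 to 0.357), and within arrays the dimmest shifted by -0.45 on the log2 scale against the brightest. With 2 pools against 2, the exact two-sided permutation test gives p = 0.333 for that shift, the smallest it can give. Which transcript forms these probe sets read was not tested.

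**Figure D2:**
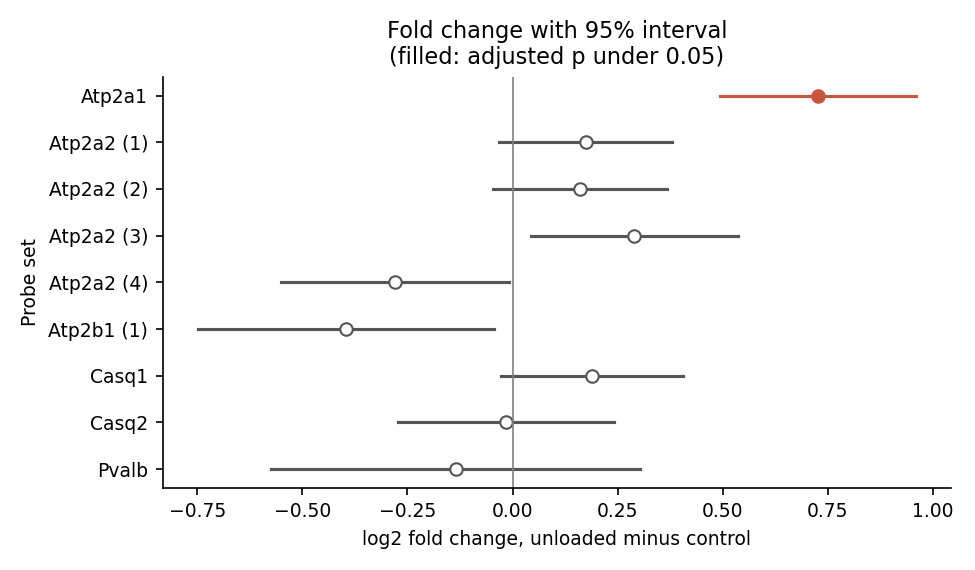
Log2 fold change, unloaded minus control, of the 9 tested probe sets (points) with their 95% intervals from limma (lines); filled points have an adjusted p under 0.05. Atp2a1 at 0.73 is the filled point, and the 4 probe sets of Atp2a2 run from -0.28 to 0.29.

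The start regions of both SERCA genes are shown as a description. The fast pump passed and the slow pump, of the same function, did not, which does not settle whether their responses differed. No link between these sequences and the response was tested. The sequences are RefSeq's for the rat assembly GRCr8, from 250 bases before to 50 bases after the annotated start, 5′ to 3′ on the gene's strand, with E-boxes (CANNTG, the core letters bound by myogenic factors and other basic helix-loop-helix proteins, the same on both strands) in capitals. Atp2a1 lies at chr1:190475361-190475660 on the minus strand and Atp2a2 at chr12:39733269-39733568 on the plus strand.
Atp2a1: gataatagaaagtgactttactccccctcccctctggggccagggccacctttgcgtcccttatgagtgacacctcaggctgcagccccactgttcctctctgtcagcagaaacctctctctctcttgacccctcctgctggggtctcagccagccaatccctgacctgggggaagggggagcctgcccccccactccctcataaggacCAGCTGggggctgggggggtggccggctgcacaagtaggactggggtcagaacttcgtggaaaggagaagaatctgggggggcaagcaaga
Atp2a2: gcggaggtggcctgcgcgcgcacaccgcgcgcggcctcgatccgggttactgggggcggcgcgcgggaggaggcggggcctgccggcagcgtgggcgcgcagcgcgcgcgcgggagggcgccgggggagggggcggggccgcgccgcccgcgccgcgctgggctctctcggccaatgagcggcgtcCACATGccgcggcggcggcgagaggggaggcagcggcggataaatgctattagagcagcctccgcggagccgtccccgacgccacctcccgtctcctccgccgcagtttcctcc

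Each window held 1 E-box, beginning 41 bases before the start in Atp2a1 and 64 bases before it in Atp2a2, and 72.1% of all 33469 RefSeq rat windows of this length held at least 1. A CCAAT box (CCAAT, both strands) was also found once in each, beginning 96 and 79 bases before the start, and in 37.5% of all windows. Neither held an M-CAT element (CATTCC, both strands), a MEF2 motif or a CArG box. The windows differed in base composition: Atp2a1 had 3 CpG dinucleotides and 61% G and C, and Atp2a2 had 52 CpG dinucleotides and 79% G and C, against a median of 7 and 51.7% over all windows. Among the other members, Casq1 (3 CpG) and Pln (4) had few and Atp2b1 (42) had many. The windows of Casq1 and Pvalb each held 3 E-boxes and that of Atp2b1 held none. Casq2 was the member with a MEF2 match, found in 3.29% of all windows. These matches describe letters in the windows and are not measured binding sites.

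Atp2b1 encodes a plasma membrane pump that exports calcium from many cell types. Its brightest probe set, L04739cds_s_at, read 65.2 and 60.7 in controls and 44 and 47.4 in unloaded pools. Both unloaded pools were lower, at 0.675 to 0.781 times the control pools, but the log2 fold change of -0.40 (SE 0.15, 95% interval -0.75 to -0.04) did not pass after adjustment (limma adjusted p = 0.192). The 2 other probe sets were too dim to test. One lay between 12.4 and 17.6 with overlapping groups, and one between 0.9 and 1.8, where the control pools were the higher ones.

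Pln, phospholamban, binds SERCA2 and lowers its affinity for calcium until phosphorylated. Its probe set read 15.2 and 10.8 in controls and 13.6 and 18.7 after unloading, and the groups overlapped. The mean signal of 14.6 was under the filter, so no fold change is given.

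Casq1 encodes calsequestrin 1, the main calcium store protein of skeletal muscle. Its probe set read 3075 and 3387 in controls and 3528 and 3840.2 after unloading, and the unloaded pools were the higher ones by 1.04 to 1.25 times. The log2 fold change of 0.19 (SE 0.09, 95% interval -0.03 to 0.41, limma adjusted p = 0.299) did not pass, and it was 0.12 without control pool 1. Casq2, the calsequestrin of heart and slow fibres, read 771.8 and 884.7 in controls and 872.1 and 766.5 after unloading. These values interleave, and the log2 fold change was -0.02 (SE 0.11, 95% interval -0.27 to 0.24, limma adjusted p = 0.964).

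Pvalb, parvalbumin, buffers cytosolic calcium in the fastest fibres. It was dim in this muscle, at 37.8 and 33.3 in controls and 35.6 and 27.8 after unloading, with overlapping groups. Its log2 fold change was -0.14 (SE 0.19, 95% interval -0.57 to 0.30, limma adjusted p = 0.756). The interval is wider than for the bright members and includes a change as large as -0.57.

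Ratios taken within an array compare members free of a shared scale factor. The log2 ratio of Atp2a1 to Atp2a2 (brightest probe sets) was -0.96 and -1.03 in controls and -0.48 and -0.41 after unloading. It shifted by 0.55 towards the fast pump, without overlap and with SDs of 0.04 and 0.05. With 1 array left out this shift ran from 0.52 to 0.59. The ratio of Atp2a1 to Casq1 was -0.27 and -0.63 in controls and 0.11 and 0.07 after unloading, a shift of 0.54 without overlap. It was less steady, from 0.36 without control pool 2 to 0.72 without control pool 1. For Casq1 over Casq2 the ratio was 1.98 and 1.93 in controls and 2.00 and 2.31 after unloading, a shift of 0.20, most of it from unloaded pool 2: without that pool the shift was 0.05. Each of the 3 gave p = 0.333 in the exact two-sided permutation test, the smallest possible here, so none could pass 0.05. The level of each ratio carries the probe sets' own brightness, and the shift shows unequal change only.

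**Figure D3:**
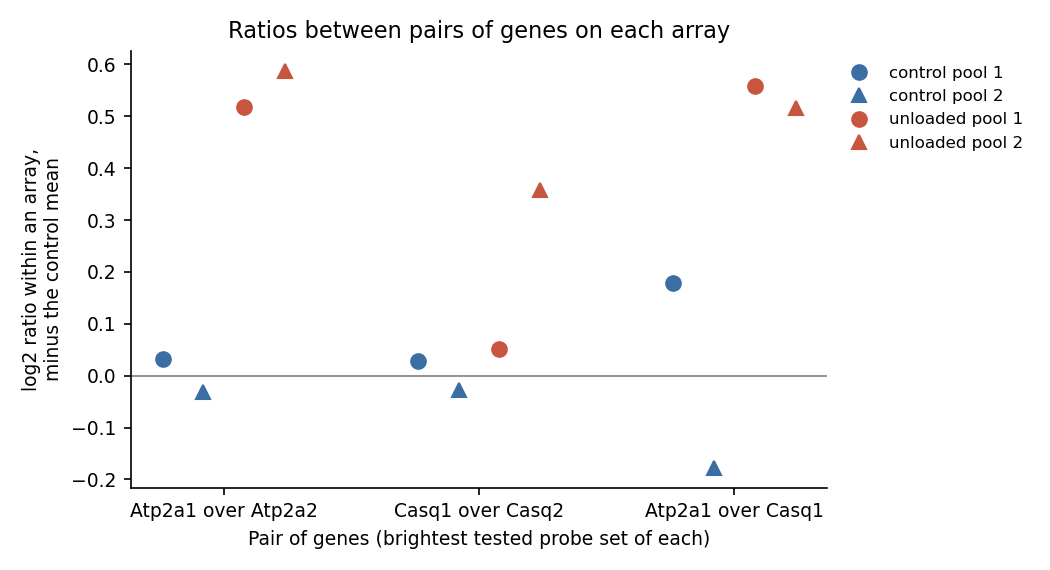
Log2 ratio of 2 genes within each array, minus the mean of the control pools, for 3 pairs of genes; circles are pool 1 and triangles pool 2 of control (blue) and unloaded (red) rats. Atp2a1 over Atp2a2 and Atp2a1 over Casq1 lie higher in both unloaded pools (shifts of 0.55 and 0.54), while 1 unloaded pool of Casq1 over Casq2 lies close to the controls.

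Other calcium-handling genes were taken from a list of 48, of which 35 had a probe set and 29 were bright enough to test. By its brightest probe set, 1 rose, none fell and 28 did not pass, with a median log2 fold change of -0.02. Over all 3152 tested genes read the same way, 2.54% rose and 2.16% fell, with a median of 0.01. Cacna2d1, an accessory subunit of voltage-gated calcium channels, was the gene that rose, from 239.8 and 259.6 in controls to 365.9 and 353.5 after unloading (0.51, SE 0.10, limma adjusted p = 0.032). The call of Cacna2d1 was lost with the pool number as a block (limma adjusted p = 0.0689), without a filter (0.0743) and without a trend (0.0954). Its log2 fold change ran from 0.46 to 0.57 with 1 array left out.

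The 4 genes next by p-value were also higher in both unloaded pools and did not pass. Picking by p-value favours groups that do not overlap. Of the 35 genes with a probe set, dim ones included, 9 were higher and 4 lower in both unloaded pools. That was so of 25.5% (higher) and 25.3% (lower) of all tested probe sets. Orai1, the pore of store-operated calcium entry, read 275.2 and 297.6 against 378.7 and 417.2 (0.46, SE 0.11, limma adjusted p = 0.0514). S100a4, a small calcium-binding protein, read 199.2 and 220.9 against 306.7 and 278.5 (0.46, SE 0.11). Canx, the chaperone calnexin of the endoplasmic reticulum, gave 0.37 (SE 0.09) on its brightest probe set, but its 4 dimmer ones gave 0.08, -0.09, -0.32 and -0.53. Cacng1, the gamma subunit of the skeletal muscle calcium channel, gave 0.27 (SE 0.10). The pore subunit of that channel, Cacna1s, triggers the release channel. Its brightest probe set read 804.1 and 944 in controls and 748.5 and 821.1 after unloading (-0.15, SE 0.11), with overlapping groups. A dimmer one gave 0.04 (SE 0.09), with both unloaded pools higher. Among transporters, Atp2a3, the SERCA pump of blood and other non-muscle cells, gave 0.05 (SE 0.15) and the sodium-calcium exchanger Slc8a1 gave -0.02 (SE 0.22). The reticulum proteins Asph (0.02, SE 0.09), Jph2 (-0.13, SE 0.11) and Calr (-0.12, SE 0.09) did not pass either. Dimmer tested probe sets gave -0.35 (SE 0.22) for Slc8a1, and 0.02 and -0.24 for Calr, and did not pass.

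The rise of Atp2a1 was set beside contractile genes of the same fibre type, whose results were largely known before. Of 9 tested fast-fibre genes 6 rose, none fell and 3 did not pass (median 0.63), and of 8 slow-fibre genes 1 fell and 7 did not pass (median -0.02), where 2.54% of all tested genes rose and 2.16% fell. The fast troponin I gene Tnni2 read 498.1 and 374.8 in controls and 909.8 and 886.8 after unloading. Myl11 and Tnnt3 gave 0.71 (SE 0.10) and 0.68 (SE 0.11). The fast genes that did not pass were Myl1 (0.17, SE 0.09), Myh1 (-0.04, SE 0.21) and Myh4 (0.15, SE 0.21). In Myh1 and Myh4 the groups overlapped. In the slow list Myl6b gave -0.70 (SE 0.15, limma adjusted p = 0.0426), Csrp3 gave 0.22 (SE 0.12) and Myh7 gave -0.13 (SE 0.09). The call of Myl6b was lost with the pool number as a block (limma adjusted p = 0.0824), without a filter and without a trend. Its log2 fold change ran from -0.77 to -0.62 with 1 array left out. With 1 array left out, Csrp3 ran from 0.062 to 0.39, lowest without control pool 2, and Myh7 from -0.21 to -0.043. The count of fast genes that rose was 2 without a filter and 1 without a trend. Their median ran from 0.47 to 0.75 with 1 array left out.

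**Figure D4:**
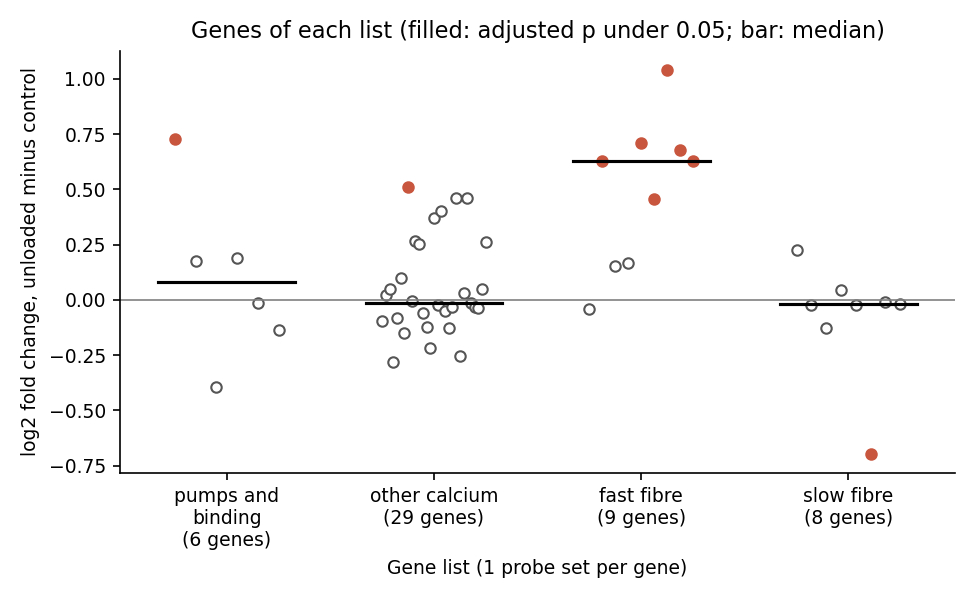
Log2 fold change, unloaded minus control, of single genes (points, brightest tested probe set) in 4 lists, with the median as a bar; filled points have an adjusted p under 0.05. Atp2a1 stands at 0.73 among the 6 tested pump and binding genes, near the fast-fibre median of 0.63, while the medians of the other calcium genes and of slow-fibre genes are both -0.02.

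Across the 4 arrays, the single-gene probe sets whose centred log2 values lay closest to those of Atp2a1 were Synj2, an inositol phosphatase (root mean square difference 0.0146), Mybph, a myosin-binding protein (0.0313), and a second probe set of the fast light chain Myl11 (0.0355). The Myl11 probe set read 1178 and 1078 in controls and 1835 and 1881 after unloading. Of 4350 candidates, 28 lay within 0.1 of Atp2a1. For Casq1 588 and for the brightest probe set of Atp2a2 765 candidates lay as close, since small differences are shared by many probe sets. With 4 arrays such likeness is a description only.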

How the data were processed

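Soleus RNA of 2 control and 2 unloaded pools was read on Affymetrix arrays (1 array per pool). The authors deposited linear intensity values per probe set, made with MAS5 per the submitters' processing notes (the sources used here give no version or scaling target). The trimmed mean was 150.2 or 150.3 on every array, so a common scale is assumed; detection calls were not used. Annotation came from the platform table, and gene IDs gave current symbols from RefSeq's table of GRCr8; 7006 probe sets had 1 symbol, and 59 Affymetrix controls were left out.

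Signals were transformed as log2(signal + 9), 9 being the 25th percentile of all signals. The test took the 5257 probe sets whose mean signal reached 21.0, the 40th percentile, with limma 3.58.1 in R 4.3.3 (lmFit, eBayes with a mean-variance trend, Benjamini-Hochberg adjustment, threshold 0.05). The number of arrays limits the precision. Labels do not say that pools with the same number belong together, so the fit has no block. Ratios between members were compared by exact permutation.

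Members and lists were chosen with earlier results of these data known. Named genes were all members with every probe set, and the other calcium genes that passed and the 4 next by p. Also named were the 3 with the smallest p in each fibre list, and the 3 nearest probe sets to a member that passed. Cacna1s, Atp2a3, Slc8a1, Asph, Jph2 and Calr were named beyond this rule for their roles, after their values were seen. Myh1, Myh4 and Myl1 were also named beyond it, as the tested fast genes that did not pass. A gene in a list is read by its tested single-gene probe set of highest mean log2 value. Data were simulated for these 5257 probe sets, with 200 of them changed, in 10 runs (unloaded against control, independent normal errors). The fit recovered 34.9% of 1.5-fold and 85.2% of 2-fold changes, with 6.03% false calls. Alternatives are given in the closing section. Plots used matplotlib 3.10.9 (Python 3.11.15).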

Additional observations from a re-analysis of the deposited data

How the results depend on the processing

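Alternatives were quantile normalization, median scaling, offsets at the 10th and 50th percentile, no filter or one at the 60th percentile, the pool number as a replicate block, no mean-variance trend, leaving out each array, and for lists and ratios averaging all probe sets of a gene. The fold change of Atp2a1 kept its sign in all 12 alternatives run on it and passed in 7, among them the block (adjusted p = 0.0238). At 0.73 it missed the threshold without a filter (limma adjusted p = 0.0538) and without a trend (0.0614). It ran from 0.62 to 0.84 with 1 array left out. Such a fit has a lone array in 1 group, so calls and counts from it say little about stability. Atp2a2, Atp2b1 and Casq1 kept their signs and passed in none; with 1 array left out the brightest Atp2a2 probe set ran from 0.096 to 0.25, Casq1 from 0.12 to 0.26 and Atp2b1 from -0.44 to -0.35. Casq2 turned to 0.0079 with median scaling, to 0.082 without control pool 2 and to 0.077 without unloaded pool 2, within a leave-one-out range of -0.11 to 0.082. Pvalb turned to 0.0035 without unloaded pool 2, within -0.27 to 0.0035. The shift of Atp2a1 over Atp2a2 was 0.50 with quantile normalization and 0.64 with the mean over probe sets. For Atp2a1 over Casq1 it was 0.50 with quantile normalization. The ratio of Pln to Atp2a2 could not be given, since Pln lay under the filter; Atp2b1 and Pvalb lay under the filter at the 60th percentile.

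All 136 higher and 140 lower probe sets became 42 and 48 without a filter, 52 and 61 without a trend, 78 and 87 with the pool number as a block, and 22 to 43 and 38 to 55 with 1 array left out. The deviations of pools with the same number correlated at -0.0438, which does not pair them, and the block changed no call of a member. Of the other calcium genes, 1 rose in the reported setting, 3 with median scaling and with the mean over probe sets (Orai1 and S100a4 beside Cacna2d1), 2 with the offset at the 50th percentile (Orai1 beside it), 4 with the filter at the 60th percentile (also Canx), and 0 without a filter, without a trend, with the block and without any 1 array. Fast-fibre genes that rose numbered 2 without a filter, 1 without a trend and 0 to 4 with 1 array left out, and their median of 0.63 was 0.48 with the mean over probe sets and 0.47 to 0.75 with 1 array left out. The call of the slow-fibre gene Myl6b was lost (0) without a filter, without a trend, with the block and with any 1 array left out. The causes were not tested.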
